A study of Mus musculus with 4 samples.

Results

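The genes examined here encode the protein components of the mitochondrial ribosome. They were taken as all genes of the authors' deposited comparison whose symbol begins with Mrpl or Mrps followed by a digit, which gave 76 genes among the 11536 listed, 47 named for the large subunit (Mrpl) and 29 named for the small subunit (Mrps). The RNA came from CD4+CD8+ double-positive (DP) cells of the thymus, immature T cells that assemble the alpha chain of their receptor, sorted from thymi of C57BL/6 mice to a purity above 98%. The 2 KO mice were Uqcrfs1 fl/fl and CD4-Cre+, so both floxed alleles of Uqcrfs1 were exposed to a Cre recombinase driven by Cd4 regulatory sequence, which switches on in developing T cells around the DP stage. The 2 control mice carry the genotype label WT, while the description of the series calls them heterozygous littermates, and no source used here states whether they carried the Cre transgene. WT is therefore only the name of a group below, and a difference between the groups cannot be told apart from an effect of the transgene if the controls lacked it.

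The mitochondrial ribosome translates the few proteins encoded in mitochondrial DNA, all of them subunits of the respiratory chain complexes and ATP synthase. Its ribosomal RNAs are transcribed in the organelle, but every one of its proteins is encoded in the nucleus, made in the cytosol and imported. Many of these proteins descend from bacterial ribosomal proteins, and the others were acquired in the mitochondrial lineage.

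Each library came from 1 mouse, and the gene counts per library were between 30408863 and 34080516. The deleted gene Uqcrfs1, whose product is the iron-sulfur subunit of complex III, had 15.6 and 18.6 CPM (counts scaled to a common library total) in the KO libraries, against 61.4 and 57.2 CPM in the WT libraries, and fell by 1.80 on the log2 scale (SE 0.09, edgeR quasi-likelihood test, adjusted p = 0.000178). The defining DP markers were high in every library, with a summed level of 22150 and 22240 CPM over 12 genes in the KO libraries and 21190 and 22340 CPM in the WT libraries. Markers of the preceding double-negative (DN) thymocyte stage summed to 132.5 and 176.5 CPM in the KO libraries and to 104 and 106.3 CPM in the WT libraries, with 7 of 7 tested genes higher in KO, while erythroid markers were near 0, with Hba-a1 and Hba-a2 at 0 in every library. Of the tested markers of mature T cells 7 of 10 were higher in KO, of B cells 4 of 4 and of myeloid cells 4 of 6, while the summed levels of these lists were 705.6 and 716, 29.6 and 28.1, and 74.0 and 77.4 CPM in the KO libraries, against 725.9 and 713, 29.0 and 25.6, and 77.3 and 78.0 CPM in the WT libraries. Stromal markers, with 1 of 3 higher and Pdgfra at 0, summed to 145 and 145 CPM in KO and 152 and 156.5 CPM in WT. KO replicate 2 stood apart in some of these markers, with 170 counts of Lyz2 against 7 to 17 in the other libraries, 42 of Csf1r against 4 to 5, 32 of Itgax against 2 to 4 and 219 of Zbtb7b against 48 to 74. Other markers of the same lists did not follow. That library had 1613 counts of Cst3 against 1840 to 1936, 197 of Cd68 against 173 to 226 and 266 of Runx3 against 165 to 287. Reads outside annotated exons made up 20.6% and 19.9% of uniquely aligned reads in the KO libraries and 17.2% and 18.6% in the WT libraries. In bulk RNA, fewer cells of a type and less RNA per cell cannot be told apart, and with 2 mice per group every p and SD below rests on 2 animals a side.

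Mitochondrial ribosomal protein genes were slightly lower in KO DP thymocytes, and no single gene among them passed the threshold of the genome-wide test. All 76 passed the filter on low counts, so none of them was left out of the comparison. They were drawn from the authors' list of 11536 genes, which is shorter than the 13281 genes that pass this filter. Their passing is therefore no result about the gene family. The log2 change of KO over WT was below 0 for 62 of 76 genes, against 50.1% of the 13281 genes tested. Its median over the 76 genes was -0.069, and it ran from -0.56 (Mrpl33) to 0.11 (Mrps10), while the median over all genes tested was -9.8e-05. Among the 9227 genes expressed within the same range of CPM, 52.3% were lower in KO and the median was -0.0067. DESeq2 called 1 of the 76 genes (Mrpl33) at an adjusted p under 0.05, where it called 22 of 20968 genes. The edgeR quasi-likelihood test called 0 of the 76 genes at that threshold, where it called 0.0226% of all genes, 0.0151% as lower in KO. At an unadjusted p under 0.05 there were 10 lower genes, where 4.01% of all genes were lower at that level, and 0 higher genes, where 4.4% of all genes were higher. Both KO libraries lay below both WT libraries for 41 genes (20.1% of all genes did so), and both lay above for 5 genes (20.4% of all genes).

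**Figure D1:**
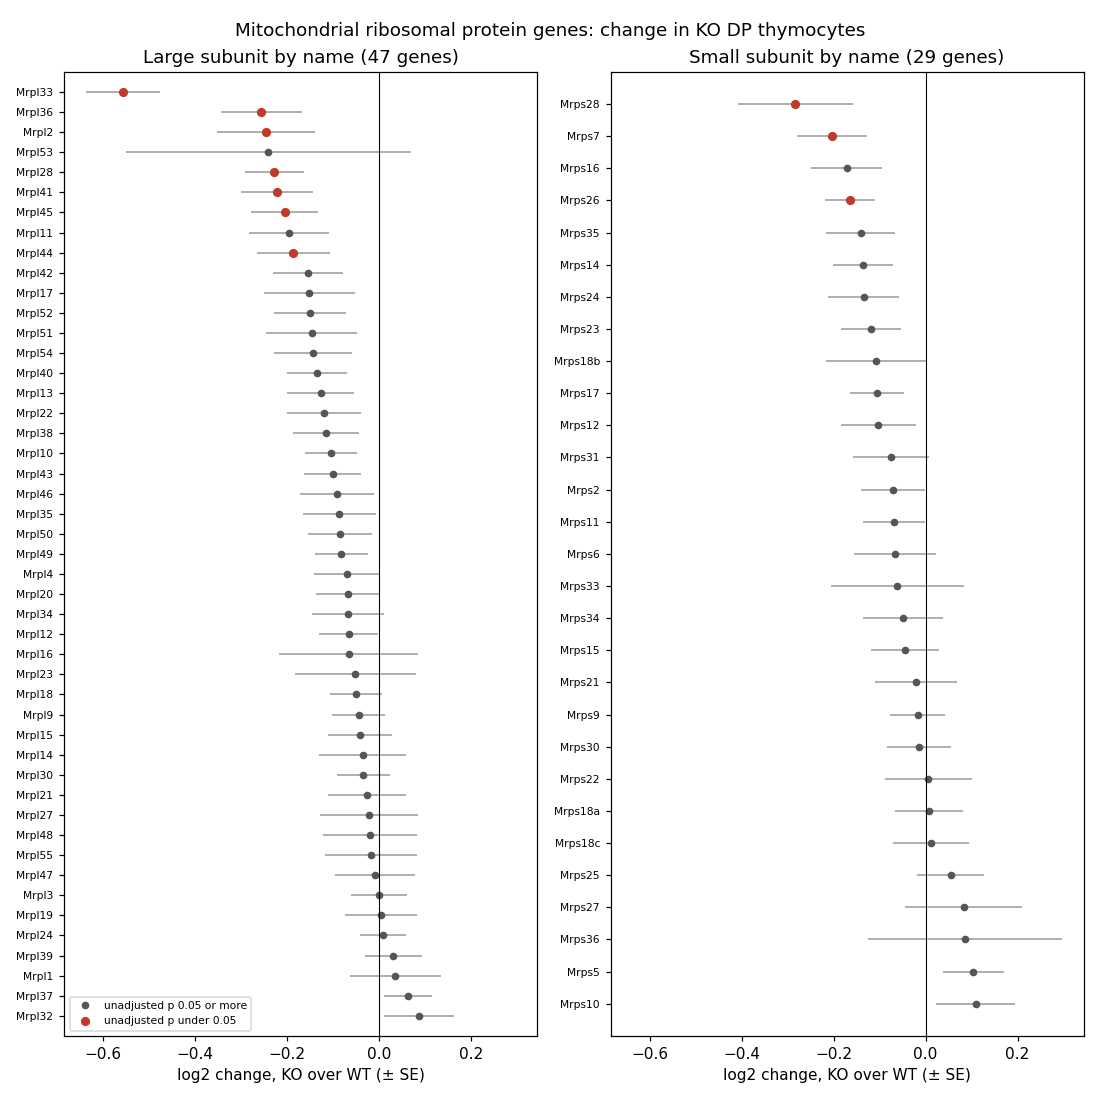
Log2 change of KO over WT (x axis, bars ± SE) for each of the 47 genes named for the large subunit and the 29 named for the small subunit, sorted by change, with 2 libraries per group. Most points lie left of 0 in both panels, Mrpl33 stands apart at -0.56, and the 10 red points are genes with an unadjusted p under 0.05.

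The level of the whole set differed little between the groups and more between the WT libraries than between the KO libraries. The summed level over the 76 genes was 2432 and 2420 CPM in the KO libraries, against 2607 and 2525 CPM in the WT libraries. The means were 2426 ± 8.41 CPM in KO and 2566 ± 57.9 CPM in WT (SD, n = 2 each), which put KO at -5.44% relative to WT. Both KO sums were below both WT sums, and WT replicate 1 was the highest library. That library held the highest value of 48 of the 76 genes, WT replicate 2 that of 15, KO replicate 1 that of 11 and KO replicate 2 that of 2. The sum over 28 cell cycle genes was also highest in WT replicate 1, with 6937 and 7184 CPM in the KO libraries and 7997 and 6791 CPM in the WT libraries, and 26 of the 28 genes were lower in KO. The part of the cell cycle genes, the markers of other cells and reads outside exons in the result was not tested. Without KO replicate 2, the library with the high counts of Lyz2, Csf1r, Itgax and Zbtb7b, the median log2 change of the 76 genes was -0.075 with 60 genes lower. Without WT replicate 1 it was -0.052 with 50 genes lower, and without WT replicate 2 it was -0.10 with 67 genes lower.

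Large and small subunit genes were lower in KO to a similar degree. Of the large subunit genes, 41 of 47 were lower, with a median log2 change of -0.082, and 7 of the 10 genes with an unadjusted p under 0.05 were among them. Of the small subunit genes, 21 of 29 were lower, with a median of -0.067, and they held the other 3. The large subunit genes summed to 1621 and 1616 CPM in the KO libraries and to 1747 and 1693 CPM in the WT libraries, a difference of -5.88%. The small subunit genes summed to 811 and 804 CPM in the KO libraries and to 860.3 and 832 CPM in the WT libraries, a difference of -4.55%. The ratio of the large to the small subunit sum was 2.00 and 2.01 in the KO libraries and 2.03 and 2.04 in the WT libraries. Every library thus held nearly the same balance of large to small subunit transcripts, with the KO ratios slightly below the WT ratios. That small gap rests on Mrpl33, which is counted in the large subunit sums. It had 47.9 and 49.3 CPM in KO and 65.6 and 77.5 CPM in WT. Over the 75 genes other than Mrpl33, the summed level in KO was -4.675% relative to WT, against -5.44% over all 76. The difference of the medians, large minus small, was -0.015, less than the spread of 0.029 (SD) that replicates of 1 group gave for the same quantity.

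**Figure D2:**
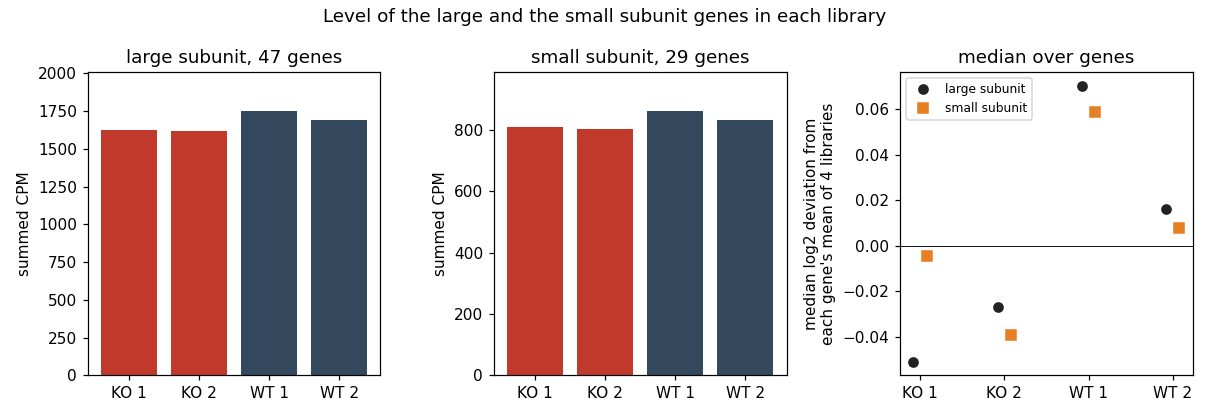
Summed CPM of the large and the small subunit genes in each library (bars, left and middle) and the median log2 deviation of each library from the gene means over the 4 libraries (right). The KO bars are the shorter ones in both subunits, and the right panel shows that the deviation is largest in WT replicate 1, at 0.070 for the large and 0.059 for the small subunit.

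A few proteins belong to a subunit other than the one in their name. Mrps30 and Mrps18a encode proteins that sit in the large subunit of the mammalian mitochondrial ribosome, and the product of Mrps36 is now known as a component of the 2-oxoglutarate dehydrogenase complex. With the genes sorted by that structure, 42 of 49 large subunit genes were lower with a median of -0.070, and 20 of 26 small subunit genes were lower with a median of -0.070. Mrps30 had 37.0 and 36.6 CPM in KO and 38.8 and 35.5 CPM in WT, and Mrps18a had 30.5 and 29.4 CPM in KO and 30.9 and 28.8 CPM in WT. Values of both genes overlapped between the groups. Its paralogues Mrps18b and Mrps18c both encode small subunit proteins. Mrps18b had 9.48 and 9.80 CPM in KO and 10.4 and 10.3 CPM in WT (log2 change -0.11, unadjusted p = 0.354), and Mrps18c had 26.3 and 26.7 CPM in KO and 27.7 and 24.7 CPM in WT (log2 change 0.01). Mrps36 was low in every library, at 3.61 and 2.93 CPM in KO and 3.11 and 3.06 CPM in WT.

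Genes of bacterial descent and genes specific to mitochondria were lower to a similar degree. Of 48 genes assigned a bacterial homologue by hand, 40 were lower with a median log2 change of -0.067. Of 28 genes assigned as mitochondrion-specific, 22 were lower with a median of -0.097. The assignment of Mrpl55 (log2 change -0.02) to the first group is doubtful. Within the large subunit, the 3 genes of the stalk and its base, which recruits translation factors, were all lower, with a median of -0.11. The 6 genes of the central protuberance, the part that contacts transfer RNA and the small subunit, were all lower with a median of -0.071. The 4 genes of the core near the catalytic centre had a median of -0.068, with all 4 lower. Around the exit of the peptide tunnel, where nascent membrane proteins leave the ribosome, 6 of 8 genes were lower with a median of -0.086. In the head of the small subunit, 7 of 8 genes were lower with a median of -0.10. These groups are small, and none of the values was tested over a group.

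Mrpl33 (ENSMUSG00000029142) encodes the counterpart of bacterial L33, one of the smallest proteins of the large subunit, and differed most between the groups. It had 47.9 and 49.3 CPM in the KO libraries, against 65.6 and 77.5 CPM in the WT libraries. The KO libraries were close to each other, the WT libraries were further apart, and the groups did not overlap. The means were 48.6 ± 1.03 CPM in KO and 71.5 ± 8.42 CPM in WT (SD, n = 2 each), a level 1.47-fold lower in KO (log2 change -0.56, SE 0.08, unadjusted p = 7.8e-05). Its adjusted p in the edgeR quasi-likelihood test was 0.115, above the threshold. In the authors' deposited table it was the 1 gene of the 76 marked as lower (log2 change -0.56, adjusted p = 1.53e-07), where 0.165% of all genes in that table were marked lower and 0.234% higher. The call also depended on the fit here. DESeq2 gave an adjusted p of 7.96e-05, edgeR's likelihood ratio test 9.49e-07, and fits that left out 1 library between 7.42e-05 and 0.0410, within a range of 1.2e-13 to 0.124 over the alternatives run on Mrpl33, which leave out those that remove a length or GC trend.

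The identity of the reads counted for Mrpl33 is less certain than for its relatives. The deposited entry spans chr5:31596935-31701972 on the plus strand of mm10, runs across the whole of Rbks on the opposite strand and reaches past the first bases of Bre, which begins at 31697684 on the same strand. Rbks, which encodes ribokinase, had 6.28 and 7.03 CPM in KO and 6.40 and 7.38 CPM in WT. Bre, also called Babam2, encodes a subunit of complexes that remove ubiquitin chains, and had 17.8 and 18.6 CPM in KO and 24.1 and 22.0 CPM in WT (log2 change -0.34, SE 0.09, edgeR adjusted p = 0.443). Both KO values of Bre lay below both WT values, as for Mrpl33, while those of Rbks overlapped between the groups. No source used here states the strand setting of the counting, and reads of the overlapping transcripts cannot be told apart.

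Other genes within 1500 kb of Mrpl33 leaned the same way. Of 42 other genes tested in that window, 30 were lower in KO, against 50.1% of all genes tested, with a median log2 change of -0.040. An unadjusted p under 0.05 was found for 7, all of them lower, where 4.01% of all genes were lower and 4.4% higher at that level. Apart from Bre these were Slc35f6, Agbl5, Khk, Abhd1, Depdc5 and the pseudogene Gm2420. Abhd1, which encodes a hydrolase-fold protein, had 8.19 and 9.33 CPM in KO and 11.3 and 13.1 CPM in WT (log2 change -0.48, unadjusted p = 0.0044). Khk, the gene of ketohexokinase, had 9.27 and 8.57 CPM in KO and 12.4 and 10.4 CPM in WT (log2 change -0.35, unadjusted p = 0.0223). Gm2420, the 1 gene of the window called by the edgeR test (adjusted p = 0.0166), had 1 and 0 counts in the KO libraries, against 103 and 207 counts in the WT libraries. Uqcrfs1 itself lies on another chromosome.

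**Figure D3:**
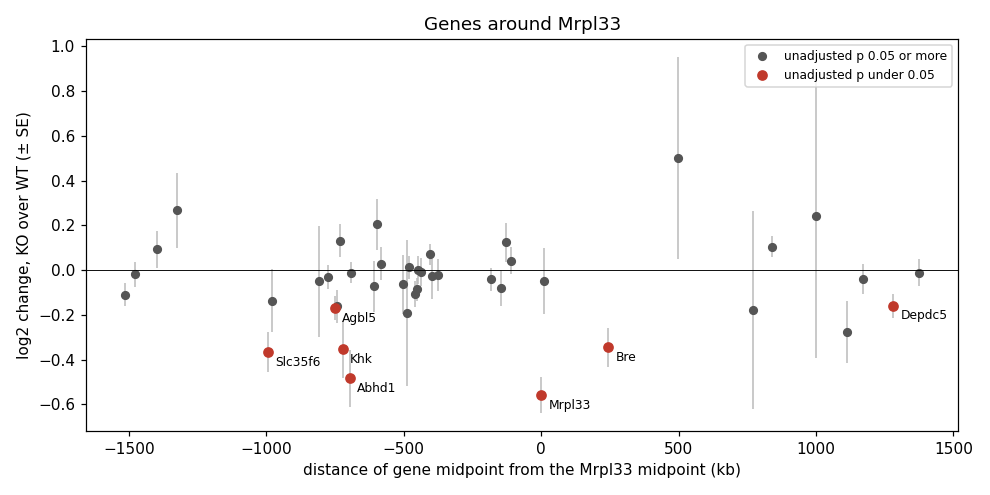
Log2 change of KO over WT (bars ± SE) for Mrpl33 and the tested genes around it, against the distance of each gene's midpoint from that of Mrpl33 in kb. Mrpl33 at -0.56 is the lowest point drawn, Bre lies to its right at -0.34, all red points (unadjusted p under 0.05) are below 0, and Gm2420 lies below the plotted range.

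The other 9 genes with an unadjusted p under 0.05 were all lower in KO, each by less than Mrpl33, and their adjusted p lay between 0.492 and 0.594. Mrpl28, the counterpart of bacterial L28 in the large subunit, had 38.8 and 38.8 CPM in the KO libraries, against 46.8 and 44.1 CPM in the WT libraries (log2 change -0.23, SE 0.06, unadjusted p = 0.0060). Its KO values were nearly identical and lay below both WT values. Mrps26, a mitochondrion-specific small subunit protein, had 63.2 and 61.2 CPM in KO and 69.7 and 69.8 CPM in WT (log2 change -0.17, SE 0.05, unadjusted p = 0.0146). Here the WT values were the nearly identical pair. Mrpl36, the counterpart of bacterial L36 and another very small protein, had 22.7 and 21.9 CPM in KO and 28.3 and 25.0 CPM in WT (log2 change -0.26, SE 0.09, unadjusted p = 0.0171). Mrpl41, a mitochondrion-specific large subunit protein, had 21.6 and 22.2 CPM in KO and 26.3 and 24.9 CPM in WT (log2 change -0.22, SE 0.08, unadjusted p = 0.0204). In both, the WT values differed more than the KO values, and the groups stayed apart.

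Proteins around the tunnel exit and the catalytic core were also among them. Mrpl45, whose product resembles a subunit of the inner membrane import machinery and holds the ribosome at that membrane, had 28.3 and 30.6 CPM in KO and 34.3 and 33.6 CPM in WT (log2 change -0.21, SE 0.07, unadjusted p = 0.0200). Mrpl44, which carries a fold related to ribonuclease III, had 26.8 and 26.6 CPM in KO and 32.0 and 28.8 CPM in WT (log2 change -0.19, SE 0.08, unadjusted p = 0.0437). Mrpl2, the counterpart of bacterial L2 next to the peptidyl transferase centre, had 22.7 and 24.7 CPM in KO and 31.0 and 25.2 CPM in WT (log2 change -0.25, SE 0.11, unadjusted p = 0.0472). KO replicate 2 and WT replicate 2 of Mrpl2 were close, and the difference rested on WT replicate 1. Without that library its log2 change was -0.09, and without WT replicate 2 it was -0.39.

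In the small subunit, Mrps7, the counterpart of bacterial S7 that organises the head, had 32.8 and 36.9 CPM in KO and 41.1 and 39.2 CPM in WT (log2 change -0.20, SE 0.08, unadjusted p = 0.0261). Mrps28 had 10.6 and 8.73 CPM in KO and 11.8 and 11.8 CPM in WT (log2 change -0.28, SE 0.12, unadjusted p = 0.0498). In these 2 genes it was the KO values that differed most from each other, and they remained below the WT values.

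**Figure D4:**
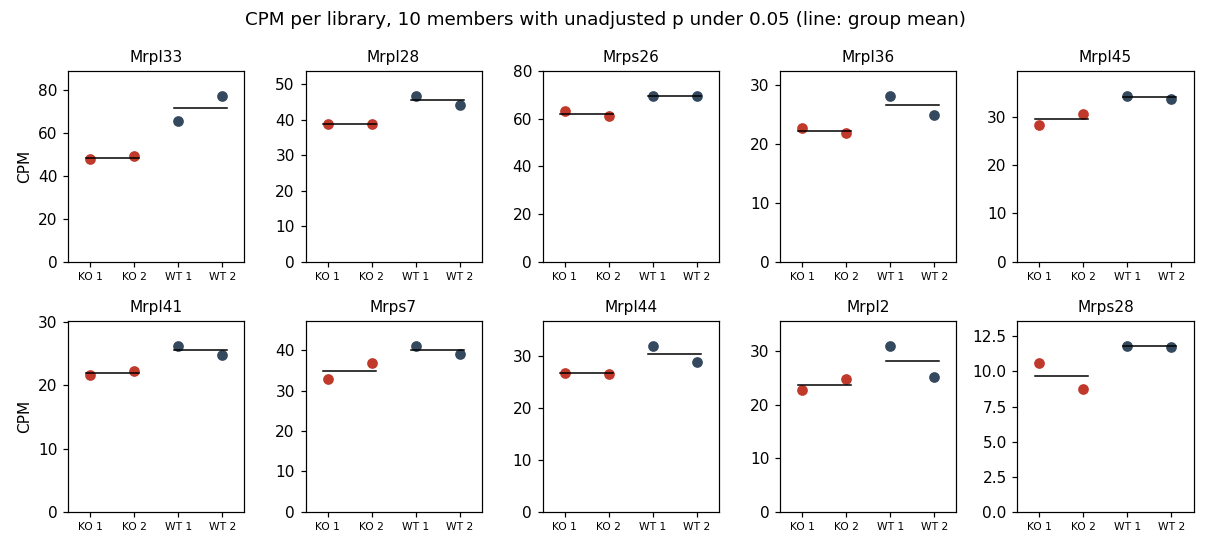
CPM in each library for the 10 mitochondrial ribosomal protein genes with an unadjusted p under 0.05 (points; lines are group means, n = 2; each panel has its own axis from 0). Both KO points lie below both WT points in all 10 panels, with the widest gap in Mrpl33 and the narrowest in Mrpl2.

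Genes of well-known function showed small differences. Mrpl12 encodes the flexible stalk protein, which also binds the mitochondrial RNA polymerase. It had 35.4 and 35.8 CPM in KO and 38.0 and 36.6 CPM in WT (log2 change -0.07, SE 0.06, unadjusted p = 0.328). Mrpl11, at the base of the stalk, had 18.3 and 17.2 CPM in KO and 20.7 and 19.9 CPM in WT (log2 change -0.20, unadjusted p = 0.0513), and its groups did not overlap. Mrps12, the small subunit protein of the decoding centre whose bacterial counterpart carries streptomycin resistance mutations, had 19.8 and 20.7 CPM in KO and 21.9 and 21.6 CPM in WT (log2 change -0.10, unadjusted p = 0.237).

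Of the 76 genes, 14 were higher in KO, none of them at an unadjusted p under 0.05. Mrpl32, whose precursor is processed by the m-AAA protease of the inner membrane before it joins the large subunit, had 27.8 and 27.5 CPM in KO and 25.2 and 26.9 CPM in WT (log2 change 0.09, unadjusted p = 0.283). Mrps5, a small subunit protein with a bacterial counterpart, had 42.5 and 40.0 CPM in KO and 37.7 and 39.2 CPM in WT (log2 change 0.10, unadjusted p = 0.152). Mrps10, a protein of the head of the small subunit, had 21.1 and 21.5 CPM in KO and 19.0 and 20.6 CPM in WT (log2 change 0.11, unadjusted p = 0.236). In these 3 genes, and in Mrpl37 and Mrps25, both KO libraries lay above both WT libraries. Mrps27, which contains RNA-binding repeats, had 19.6 and 17.7 CPM in KO and 19.8 and 15.3 CPM in WT (log2 change 0.08), with values that overlapped.

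Transcript levels within the set spanned a wide range, and the levels of most genes were close between libraries. Scaled to the length of the principal annotated transcript, the median over the 76 genes was 19.9 CPM per kb, with 25.1 CPM per kb over the large subunit genes and 15.4 CPM per kb over the small subunit genes. Mrpl33 had 100.1 and 103 CPM per kb in KO and 137 and 162 CPM per kb in WT, though its deposited entry reaches beyond the transcript used. Mrpl24, a protein next to the tunnel exit, had 119 and 113 CPM per kb in KO and 116 and 114 CPM per kb in WT. Mrpl52, Mrpl30 and Mrpl9 followed with means over the 4 libraries of 60.4, 58.2 and 56.9 CPM per kb, values that lie within the spread of the libraries of Mrpl52. The lowest were Mrpl17 with 2.17, Mrpl53 with 2.35, Mrpl48 with 4.24, Mrps25 with 4.34 and Mrps36 with 4.53 CPM per kb. Other genes overlap 88.0% of the exonic sequence of Mrpl53 and 69.8% of that of Mrps25. How reads shared there were counted is not stated, so the level of these genes is uncertain. Scaled instead to the union of all annotated exons, 1 of the 5 highest genes (Mrpl24) and 4 of the 5 lowest were shared, so the upper order depends on the transcript used. The median coefficient of variation between replicates was 2.73% over the 76 genes in KO and 3.58% in WT.

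Several of these genes share sequence with a neighbour. Exons of another annotated gene overlapped those of 31 of the 75 genes found under the same identifier in the annotation used here. More than 50% of the exonic sequence was overlapped in 3 of them: Mrps34, Mrps25, which lies across Nr2c2 on the opposite strand over 69.8% of its exons, and Mrpl53, with 88.0%. Mrpl53 had 1.32 and 1.67 CPM in KO and 1.43 and 2.11 CPM in WT (log2 change -0.24, SE 0.31), from 45 to 64 counts per library, and its groups overlapped. The 44 genes free of such overlap showed a median log2 change of -0.073 with 35 lower, and the 31 with overlap one of -0.067 with 26 lower. Annotated pseudogenes of these genes had 0 to 9 counts in any library.

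Exonic length moved with the change in all genes and differed between the set and the rest. The median exonic length was 2214 bases over the 76 genes and 4070 bases over all genes tested. Across 5 bins of exonic length with equal numbers of genes, from shortest to longest, the median log2 change of all genes was -0.054, -0.039, -0.010, 0.017 and 0.043, and 31 of the 76 genes lay in the shortest bin and 20 in the next. Within those 2 bins the medians of the mitochondrial ribosomal protein genes were -0.10, with 29 of 31 lower, and -0.071, with 17 of 20 lower. In the middle bin and the one above it 5 of 9 genes were lower in each, with medians of -0.0092 and -0.00095. In the longest bin 6 of 7 were lower with a median of -0.13. Mrpl33 is counted in that longest bin by an exonic length of 7326 bases, matched by symbol, while its principal transcript has 478 bases. With the trend on length removed from the counts, which could not be done for Mrpl33 because its identifier is absent from the annotation, the median log2 change of the other 75 genes was -0.033 with 51 lower, against -0.069 with 61 lower for the same 75 genes before, and 49.1% of all genes were lower. Median GC content was 50.8% over the set and 50.2% over all genes.

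**Figure D5:**
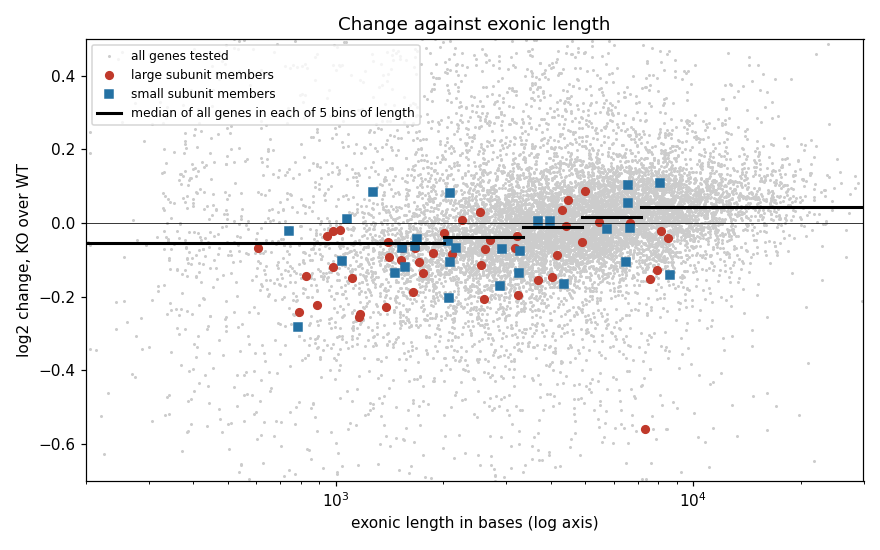
Log2 change of KO over WT against exonic length (log axis) for all tested genes (grey), large subunit genes (red circles) and small subunit genes (blue squares); black lines are the medians of all genes in each of 5 bins of length, from -0.054 in the shortest to 0.043 in the longest. Most coloured points lie at short lengths and below 0, and genes beyond the axis limits are not drawn.

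Many of these genes face another gene head to head. A start site of a gene on the opposite strand lay within 1000 bases of the start of 32 of 75 mitochondrial ribosomal protein genes (42.7%), against 2010 of 11351 protein-coding genes tested (17.7%). The 32 genes showed a median log2 change of -0.075 with 27 lower, and the 43 others one of -0.069 with 34 lower. Their 28 tested partners outside the set had a median of -0.052, with 20 lower. Mrps11 and Mrpl46 face each other with starts 412 bases apart. Mrps11 had 32.5 and 31.8 CPM in KO and 33.6 and 33.9 CPM in WT, and Mrpl46 had 21.4 and 21.9 CPM in KO and 23.8 and 22.3 CPM in WT. In both genes the KO values were below the WT values. Mrpl36 starts 29 bases from Ndufs6, which encodes a subunit of respiratory complex I and had 32.3 and 30.9 CPM in KO and 37.9 and 35.7 CPM in WT (log2 change -0.22, unadjusted p = 0.0127) without passing the genome-wide test. Other partners with mitochondrial roles were Twnk, the mitochondrial DNA helicase, beside Mrpl43, Sars2, a mitochondrial transfer RNA synthetase, beside Mrps12, and Ndufb5, a complex I subunit, beside Mrpl47.

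Promoters of nuclear genes for mitochondrial proteins often carry sites for the transcription factors NRF1, GABP (an ETS factor) and YY1. In RefSeq promoters of GRCm38.p6, from 250 bases before to 50 bases after the start, both strands were searched for CGCATGCG (core of the NRF1 site), CCGGAAG (ETS) and AAGATGGC (YY1). The ETS and YY1 letters can share the bases AAG where one follows the other. A promoter was present in the table for 67 of the 76 genes and for 9058 tested genes. The ETS letters were found in 24 of the 67 promoters (35.8%), against 21.2% of all, the YY1 letters in 12 (17.9%), against 5.62%, and the NRF1 letters in 7 (10.5%), against 4.67%. At least 1 of the 3 was present in 36 of the 67 promoters (53.7%), against 28.8%. The median log2 change was -0.084 in the 36 genes with a motif and -0.067 in those without.

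The 120 bases before the start are shown for 2 sets of genes, with the stretch left out where it touches an annotated exon. The first holds the 3 genes with an unadjusted p under 0.05 for which this was possible, none of which has any of the 3 motifs in this stretch. They lie at chr11:97315596-97315715 (plus strand, Mrpl45), chr2:24975099-24975218 (minus strand, Mrpl41) and chr17:46646101-46646220 (plus strand, the first of several annotated starts of Mrpl2) in GRCm38.p6.
Mrpl45: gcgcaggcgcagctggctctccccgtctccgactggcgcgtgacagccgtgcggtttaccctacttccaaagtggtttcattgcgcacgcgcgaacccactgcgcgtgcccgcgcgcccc
Mrpl41: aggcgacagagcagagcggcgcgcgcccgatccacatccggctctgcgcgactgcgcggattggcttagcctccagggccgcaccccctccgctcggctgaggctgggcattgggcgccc
Mrpl2: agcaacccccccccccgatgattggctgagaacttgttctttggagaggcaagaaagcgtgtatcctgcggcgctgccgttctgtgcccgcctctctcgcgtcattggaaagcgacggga
The second holds the 4 genes whose stretch contains the ETS letters, shown in capitals as CCGGAAG or as the reverse complement CTTCCGG. They lie at chr8:71464806-71464925 (plus strand, Mrpl34), chr9:98601680-98601799 (minus strand, Mrps22), chr14:54426789-54426908 (plus strand, Mrpl52) and chr7:100583131-100583250 (minus strand, 1 of several annotated starts of Mrpl48).
Mrpl34: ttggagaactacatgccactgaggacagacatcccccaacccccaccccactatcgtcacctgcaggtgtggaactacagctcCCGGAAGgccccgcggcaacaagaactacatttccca
Mrps22: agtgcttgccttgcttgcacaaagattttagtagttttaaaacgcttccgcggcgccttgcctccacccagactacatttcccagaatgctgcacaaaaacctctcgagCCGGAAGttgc
Mrpl52: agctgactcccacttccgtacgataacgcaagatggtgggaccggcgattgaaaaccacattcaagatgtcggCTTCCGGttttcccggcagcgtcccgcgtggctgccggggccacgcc
Mrpl48: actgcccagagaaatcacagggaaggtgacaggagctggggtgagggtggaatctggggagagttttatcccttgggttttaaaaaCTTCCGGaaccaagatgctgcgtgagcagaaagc
Of these genes, Mrpl52 had 23.1 and 24.8 CPM in KO and 26.6 and 26.5 CPM in WT (log2 change -0.15), and Mrpl34, the counterpart of bacterial L34, had 23.3 and 24.8 CPM in KO and 25.0 and 25.5 CPM in WT (log2 change -0.07). Mrps22 had 20.3 and 20.4 CPM in KO and 21.7 and 18.8 CPM in WT (log2 change 0.01), and Mrpl48, a protein of the central protuberance, had 17.9 and 18.2 CPM in KO and 19.8 and 16.7 CPM in WT (log2 change -0.02). The KO values lay below the WT values for Mrpl52 and Mrpl34 and between them for Mrps22 and Mrpl48. A match in letters is a description of the sequence and does not show that a factor binds there.

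Other parts of the mitochondrial translation apparatus differed in how many genes were lower. Mitochondrial ribosomal proteins that carry other names were lower in 5 of the 6 genes listed, with a median log2 change of -0.093. The list leaves out Mrp63, now also called Mrpl57, with 28.5 and 30.1 CPM in KO and 35.15 and 30.6 CPM in WT (log2 change -0.17, edgeR unadjusted p = 0.0823). Ict1, now also called Mrpl58, a peptidyl-tRNA hydrolase that is built into the large subunit, had 85.9 and 87.1 CPM in KO and 103.6 and 94.7 CPM in WT (log2 change -0.20, SE 0.06, edgeR adjusted p = 0.508). Dap3, the GTP-binding protein of the small subunit, had 150.6 and 153.9 CPM in KO and 161.5 and 155 CPM in WT. In both genes the KO values were below the WT values. Translation factors of the organelle were lower in 10 and higher in 7 of 17 genes tested, with a median of -0.017, and assembly and rRNA modification factors were lower in 12 and higher in 15 of 27, with a median of 0.0018. The edgeR test called 0 genes in each of these lists, where it called 0.0226% of all genes. At an unadjusted p under 0.05 it gave 1 lower gene among the proteins with other names, 1 higher gene among the translation factors and 2 lower genes among the assembly factors. Of all genes tested, 4.01% were lower and 4.4% higher at that level. Counts this small in short lists are not read as a result about the lists.

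Ddx28, an RNA helicase needed to assemble the large subunit, differed most among the assembly factors. It had 17.4 and 16.9 CPM in KO and 25.1 and 22.8 CPM in WT, so that the groups did not overlap (log2 change -0.48, SE 0.09, edgeR adjusted p = 0.257). The call depended on the fit, with an adjusted p of 0.00117 in edgeR's likelihood ratio test and 0.0220 without WT replicate 2, within a range of 0.000223 to 0.281 over all alternatives. Guf1, the mitochondrial form of a translation elongation factor conserved from bacteria, had 47.1 and 49.0 CPM in KO and 40.8 and 44.8 CPM in WT (log2 change 0.17, SE 0.07, edgeR adjusted p = 0.571), with both KO values above both WT values.

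The 2 mitochondrial ribosomal RNAs, which form the core of the particle, were lower in KO as well. The large subunit RNA mt-Rnr2 had 535 and 520.5 CPM in KO and 636 and 610 CPM in WT (log2 change -0.24, SE 0.05, edgeR adjusted p = 0.302). The small subunit RNA mt-Rnr1 had 465 and 452 CPM in KO and 489 and 498 CPM in WT (log2 change -0.11, SE 0.05, edgeR adjusted p = 0.581). For both RNAs the KO libraries lay below the WT libraries, and whether the large subunit RNA differed more than the small was not tested. No source used here states whether polyadenylated RNA was selected, and such a step leaves only a part of the ribosomal RNA.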

How the data were processed

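RNA-seq was available for DP thymocytes of 2 KO and 2 WT mice, grouped and numbered by the sample titles. The submitters' processing notes name Trimmomatic 0.33, STAR 2.5.2, HTSeq and edgeR, and the build mm10. No source used here gives the strand setting, the counting mode or the release of the annotation, which makes genes that overlap others uncertain. The authors deposited raw counts per Ensembl gene for each library and for the series, with 0 differing values between them over 43430 genes. HTSeq's lines that name no gene were left out, and 0.865% to 0.891% of uniquely aligned reads were ambiguous. The authors' deposited comparison of 11536 genes gives CPM per library, a log2 fold change, a p-value with its adjusted value, and a test statistic (a score, not used here).

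Counts were tested on all genes with edgeR 4.0.16 (R 4.3.3, quasi-likelihood test, filterByExpr with a minimum count of 10, TMM, robust, group as the only term), with Benjamini-Hochberg adjustment over 13281 genes and a threshold of 0.05. The log2 change is KO over WT, and CPM use TMM-scaled library totals. Standard errors are the log2 change divided by the root of the F statistic. The code was tested on simulated data, with 50 genes altered at each size of difference. At 1.25-fold 20 of the 50 were called, at 1.5-fold 24, at 2-fold 37 and at 4-fold 47. Of the 152 calls made there, 24 were false, a larger share than the threshold of 0.05. In the data 3 of 13281 genes were called, and the adjustment is stricter where fewer genes pass. The share recovered in the data can thus be lower than in the simulation. A gene without a call can therefore still differ, not only by a small amount, and a call can be false. Lists were described by counts and medians, with no test over a list. Exon lengths, overlaps and start sites came from GENCODE M21, where 75 of the 76 identifiers were found and Mrpl33 was matched by symbol for length. Gene roles and descent were assigned by hand. Named were Uqcrfs1, the 8 genes with the smallest p, the 5 highest and 5 lowest by change and by level per kb, genes of known or unusual role, and the 4 smallest p of the related lists; other genes were named after their values were seen. The NRF1 motif was shortened to its core after a longer form had been searched. The genes and lists were chosen with earlier results of these data known. Alternatives were DESeq2 1.42.0, the likelihood ratio test, other scalings and filters, a length or GC trend removed, a replicate block and each library left out.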

Additional observations from a re-analysis of the deposited data

How the results depend on the processing

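The median log2 change was negative under every alternative run, over 76 genes or, where a length or GC trend was removed, over 75 without Mrpl33, and between 50 and 67 were lower when 1 library was left out. With 2 mice per group, the spread rests on few animals, and the lowest counts, 45 to 64 per library for Mrpl53 and 93 to 123 for Mrps36, came with the widest standard errors.

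The number of the 76 genes called at an adjusted p under 0.05 was 0 in the reported fit and 1 (Mrpl33) under DESeq2, the likelihood ratio test, no filter and the replicate block. Those alternatives also called more of all genes than the 3 of 13281 in the reported fit. DESeq2 called 22 of 20968, the likelihood ratio test 101 of 13281, the fit without a filter 191 of 20968 and the replicate block 27 of 13281. Fits without 1 library assume that the lone sample of a group varies like the other group. The number of lower genes at an unadjusted p under 0.05, 10 as reported, was 3 under DESeq2 and 4 to 15 with 1 library left out, while that of higher genes was 0 to 1 with 1 library left out. Over the 75 genes without Mrpl33, where it was 9 as reported, it was 6 with the length trend removed and 3 and 6 with the replicate block plus the length or the GC trend removed. The cause was not tested.

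With the length trend removed, the median log2 change was -0.033 over all, -0.036 over large and -0.031 over small subunit genes, and with the replicate block as well it was -0.032, -0.033 and -0.030. Leaving out 1 library gave -0.10 to -0.052 over all, -0.11 to -0.070 for the large and -0.094 to -0.041 for the small subunit, and a difference of medians of -0.046 to 0.010.

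In the related lists, the median of the translation factors was -0.032 with the GC trend removed, alone or with the block, and -0.024 to 0.017 with 1 library left out, so that its sign changed. The assembly factors had 1 call (Ddx28) under the likelihood ratio test and without a filter, and 0 to 1 with 1 library left out. The proteins with other names had 0 to 1 calls with 1 library left out, and medians of -0.058 and -0.059 with the length and the GC trend removed, and -0.059 and -0.060 with the block as well. The mitochondrial rRNAs had 1 call (mt-Rnr2) under DESeq2, the likelihood ratio test and no filter, and 0 to 1 with 1 library left out. Their median was -0.17 as reported, -0.11 with the length trend removed, -0.25 with the GC trend removed, alone or with the block, and -0.20 to -0.15 with 1 library left out.

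Some single genes changed sign. With 1 library left out, the log2 change ran from -0.076 to 0.22 for Mrps36, -0.094 to 0.28 for Mrps27, -0.50 to 0.056 for Mrpl53, -0.029 to 0.042 for Mrpl24, -0.10 to 0.0071 for Mrpl9, -0.14 to 0.10 for Mrpl48, -0.047 to 0.054 for Mrps18a, -0.072 to 0.093 for Mrps18c and -0.079 to 0.046 for Mrps30. With the length trend removed, Mrpl12 stood at 0.00045, and with the block as well at 0.00041.

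Deviations from the group means of libraries of the same number correlated weakly (r = 0.0912 across 13281 genes). With 2 libraries per group these deviations mirror each other, so both pairs give this 1 value by construction. It cannot decide whether the numbers mark pairs, and the reported fit does not take them as pairs. The replicate block called 27 of all genes tested, against 3 in the reported fit. Under the replicate block the median was -0.069 with 62 genes lower, and Mrpl33 was called (adjusted p = 0.0109). The GC trend, and the fits that join the block with a trend, were chosen after seeing the data.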
